A study of Mus musculus with 18 samples.

Results

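Transcripts of the proteasome subunit genes were followed in mouse hepatocyte-derived cells with and without the aryl hydrocarbon receptor (AhR). The members are all genes whose symbol is Psma, Psmb, Psmc, Psmd, Psme, Psmf or Psmg followed by a number. They were 49 of the 19057 genes named on the array, read by 86 of its 45281 probes. Psmb8, Psmb9, Psmb10, Psme1 and Psme2, whose transcription is induced by interferon, were kept apart as a group of 5. A further 36 genes were counted as the constitutive core, which is 8 genes of the alpha ring, 8 of the beta ring, 6 ATPases and 14 named Psmd. Among these 36 are the thymus-specific Psmb11 and the assembly chaperones Psmd5 and Psmd10, so not all are constitutive subunits. The remaining 8 were 2 further activators, 4 assembly chaperones named Psmg, and Psmc3ip and Psme3ip1, 2 genes that carry the letters of the rule but encode no subunit.

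RNA was hybridised to 18 Illumina mouse BeadChip arrays, 3 for each of 6 groups. All cells descend from C57BL/6N hepatocytes without AhR (AhR-/- Hepa) that had been transformed with the SV40 mutant virus tsA209, and all carried the tetracycline repressor (TetR) as a stable insert. The AhR-null line carried TetR alone, and the reconstituted line carried TetR together with mouse AhR tagged with His and Myc, so that each genotype is 1 engineered line. Confluent cells of each line were left attached in 0.1% DMSO, left attached with 10 µM YH439, an AhR ligand, or detached with trypsin and held in suspension in 1.68% methylcellulose, always for 8 h at 34 °C with 10% serum and 100 nM dexamethasone. No DMSO is recorded for the cells with YH439 or in suspension. Whether the biological triplicates named in the labels came from separate cultures is not stated, so the p-values reflect variation among samples that may in part be technical. The comparisons ask how the members' transcripts responded to an AhR ligand and to suspension, with and without AhR. In suspension, loss of attachment cannot be told apart from trypsin, methylcellulose or the lack of recorded DMSO.

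The proteasome degrades proteins tagged with ubiquitin. Its barrel, the 20S particle, is built of outer alpha rings that gate the entry and inner beta rings that hold the active sites, and a 19S cap of ATPases and non-ATPases recognises, unfolds and feeds in the substrate. In cells exposed to interferon the catalytic subunits Psmb6, Psmb7 and Psmb5 are replaced in newly built particles by Psmb9, Psmb10 and Psmb8, which gives the immunoproteasome, and Psme1 and Psme2 form the PA28 cap that opens the barrel. In mammals the transcription factor Nfe2l1 raises the constitutive subunit genes together when proteasome activity falls, through antioxidant response elements in their promoters.

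Promoter windows are shown for some of the interferon-inducible members and some of the constitutive members that were called lower in suspension in at least 1 line. Windows of Psme2, Psma4, Psmc1 and Psmc4 were searched as well but are not printed, and Psmb7 had none. RefSeq promoter windows (GRCm38.p6, 250 bases before to 50 after the gene's start) were matched by symbol for 41 of the 49 member genes. The windows printed 5′ to 3′ along the gene are Psmb8 at chr17:34197945-34198244 on the plus strand, Psmb9 at chr17:34187281-34187580 on the minus strand, Psmb10 at chr8:105938343-105938642 on the minus strand, Psme1 at chr14:55578244-55578543 on the plus strand, Psma7 at chr2:180042415-180042714 on the minus strand, Psmd12 at chr11:107479278-107479577 on the plus strand and Psmd13 at chr7:140882144-140882443 on the plus strand. Capitals mark, in the interferon-inducible genes, the core of the interferon-stimulated response element (GAAANNGAAA) or a gamma-activated site (TTCNNNGAA), and in the constitutive genes the core of the antioxidant response element (TGACNNNGC or TGAGNNNGC), on either strand.
Psmb8: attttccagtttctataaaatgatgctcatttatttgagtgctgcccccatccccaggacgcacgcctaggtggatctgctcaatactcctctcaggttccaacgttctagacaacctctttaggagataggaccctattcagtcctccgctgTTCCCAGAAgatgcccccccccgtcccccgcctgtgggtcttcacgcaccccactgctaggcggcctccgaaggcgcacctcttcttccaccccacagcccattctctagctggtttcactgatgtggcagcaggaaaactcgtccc
Psmb9: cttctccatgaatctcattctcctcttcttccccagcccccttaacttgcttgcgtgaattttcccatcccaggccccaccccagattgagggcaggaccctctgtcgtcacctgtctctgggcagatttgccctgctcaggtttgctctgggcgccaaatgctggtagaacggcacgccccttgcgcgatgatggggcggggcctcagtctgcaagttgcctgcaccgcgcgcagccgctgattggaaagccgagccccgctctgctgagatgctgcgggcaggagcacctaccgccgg
Psmb10: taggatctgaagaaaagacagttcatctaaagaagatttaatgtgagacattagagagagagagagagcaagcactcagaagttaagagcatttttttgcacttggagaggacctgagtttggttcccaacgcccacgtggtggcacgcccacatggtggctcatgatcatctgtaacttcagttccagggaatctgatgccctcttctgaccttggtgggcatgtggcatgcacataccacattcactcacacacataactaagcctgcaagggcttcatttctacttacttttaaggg
Psme1: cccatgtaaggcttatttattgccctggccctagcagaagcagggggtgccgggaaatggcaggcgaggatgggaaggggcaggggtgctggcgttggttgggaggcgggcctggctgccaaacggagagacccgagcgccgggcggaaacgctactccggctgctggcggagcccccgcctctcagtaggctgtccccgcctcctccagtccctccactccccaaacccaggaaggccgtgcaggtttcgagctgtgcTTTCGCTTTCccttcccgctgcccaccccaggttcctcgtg
Psma7: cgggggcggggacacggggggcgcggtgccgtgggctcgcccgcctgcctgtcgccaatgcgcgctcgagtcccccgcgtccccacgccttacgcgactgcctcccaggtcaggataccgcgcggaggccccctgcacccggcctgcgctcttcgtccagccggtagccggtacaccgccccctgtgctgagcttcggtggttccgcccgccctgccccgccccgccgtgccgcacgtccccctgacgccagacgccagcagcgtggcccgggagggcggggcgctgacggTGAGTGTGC
Psmd12: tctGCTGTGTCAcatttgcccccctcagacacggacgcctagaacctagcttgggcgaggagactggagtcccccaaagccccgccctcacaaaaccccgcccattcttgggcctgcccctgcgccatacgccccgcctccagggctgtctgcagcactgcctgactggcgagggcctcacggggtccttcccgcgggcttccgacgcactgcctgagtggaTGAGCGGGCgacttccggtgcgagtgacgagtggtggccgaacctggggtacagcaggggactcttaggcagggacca
Psmd13: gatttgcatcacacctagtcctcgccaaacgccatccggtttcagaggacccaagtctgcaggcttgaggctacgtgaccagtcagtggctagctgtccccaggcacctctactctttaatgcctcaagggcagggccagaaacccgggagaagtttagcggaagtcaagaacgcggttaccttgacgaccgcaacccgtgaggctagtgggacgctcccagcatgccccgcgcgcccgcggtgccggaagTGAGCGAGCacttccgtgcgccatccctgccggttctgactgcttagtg

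The antioxidant response element core, in either form, was found in 13 of the 26 windows of tested constitutive core genes (50%) and in 9128 of all 32851 windows (27.8%). Of the core genes called lower in suspension in the main fit, Psma4, Psma7, Psmd12 and Psmd13 held it. The windows of Psmc1 and Psmc4, also called lower there, held neither form. The other genes that held it were Psma5, Psmb3, Psmb5, Psmb6, Psmc2, Psmc6, Psmd1, Psmd5 and Psmd9. None of these was called lower in the main fit, which has no block for replicate number. The TGAC form alone stood in 5 of the 26 windows (19.2%, against 12.4% of all windows) and the TGAG form in 10 (38.5%, against 17.6%), and the windows of Psmc6 and Psmd12 held both. CCGGAAG, an ETS site, stood in 10 of the 26 (38.5%, against 8.86%), and CCAAT, the NF-Y box, in 8 (30.8%, against 37.4%). Of the 6 windows of the interferon-inducible genes, 1 held the interferon-stimulated core (Psme1) and 1 the gamma-activated site (Psmb8), which 3.44% and 8.3% of all windows hold. Of the 26 constitutive windows, 3 (11.5%: Psmb3, Psmd4 and Psmd9) held the interferon-stimulated core and 1 (3.85%: Psmd2) the gamma-activated site. None of those 6 windows held either antioxidant core or CCGGAAG, and 1 (Psmb9) held CCAAT. These matches are descriptions of the windows, not sites shown to be used.

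Each array detected from 42% to 44.6% of its probes, at a median signal from 6.03 to 11.9. Signal was weakest on 6 arrays, which were the AhR-null arrays of replicate 3 and the reconstituted arrays of replicate 1. Within a line, arrays with the same replicate number deviated together, so pairs of the same number were also compared. The 1 probe for Ahr was detected on 1 of 18 arrays, an AhR-null one, and its place relative to the deleted and the inserted sequence is not known, so it checks no label. Of 9 hepatocyte markers on the array, 7 (Alb, Apoa1, Ttr, Cps1, Tat, Cyp2e1 and Fgb) were detected on no array and 0 on all arrays, while 8 of 8 mesenchymal markers were detected on every array. The labelled cell type is therefore not borne out by its defining transcripts. In bulk RNA, fewer cells with a transcript and less of it per cell cannot be told apart.

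Of the 49 members, 42 were tested, and the probe standing for each of the 42 was detected on all 18 arrays. A gene was tested if a probe was detected (detection p under 0.05) on at least 3 arrays, and the brightest such probe stood for it. The tested members were 30 of the 36 constitutive core genes (4 of 8 alpha, 7 of 8 beta, all 6 ATPases and 13 of 14 non-ATPases), both further activators (Psme3 and Psme4), 3 of 4 chaperones, all 5 interferon-inducible genes and both genes that share only the letters. Psma1, Psma3, Psma8, Psmd3 and Psmg4 were detected on 0 arrays, Psma6 on 1 and Psmb11, a thymus-specific catalytic subunit, on 2. Psmf1, the inhibitor PI31, had no probe named for it. Mean log2 levels of the tested members ran from 7.32 to 13.88 with a median of 11.3, against a median of 8.16 over all 11149 genes tested. All levels are log2 of background-corrected, quantile-normalized intensity, and a difference of 1 on this scale is a 2-fold difference.

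In suspension the interferon-inducible subunits fell in both lines, by 1.28-fold to 1.94-fold. Few of the constitutive subunits were called in the fit without a block, and more once line and replicate number were a block. In the reconstituted line 9 of the 42 members were called (limma, Benjamini-Hochberg adjusted p under 0.05), all lower, where 24.1% of all genes were called and 13.4% were called lower. In the AhR-null line 11 of 42 were called, all lower, where 22.6% of all genes were called and 11.9% were called lower. All 5 interferon-inducible genes were called lower in each line, with a median log2 change of -0.74 in the reconstituted and -0.64 in the AhR-null line. Of the 30 constitutive core genes, 3 (10%) were called lower in the reconstituted line and 5 (16.7%) in the AhR-null line. In this fit without a block, those shares lay near the background. With line and replicate number as a block, 26 members were called in the reconstituted line (24 lower and 2 higher, against 27.4% and 21.2% of all genes, 48.6% in all) and 25 in the AhR-null line (24 lower and 1 higher, against 26% and 21.1%, 47.1% in all). Suspension arrays all lay below all DMSO arrays for 21 of the 42 members in the reconstituted and 16 in the AhR-null line, as they did for 26.6% and 17.2% of all genes. In the fit with the block, 15 of the 30 core genes were called lower and 1 higher (Psmc6) in the reconstituted line, and 16 lower in the AhR-null line. The shares called lower were 50% and 53.3%, against 27.4% and 26% of all genes.

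The median log2 change of the core was -0.18 in the reconstituted and -0.22 in the AhR-null line, against -0.04 over all genes in both. With the authors' processed values the reconstituted median was -0.06, against 0.01 over all genes. The median core level lay between 11.62 and 11.72 on the 3 reconstituted suspension arrays and between 11.96 and 12 with DMSO. In the AhR-null line it lay between 11.54 and 11.61 in suspension and between 11.84 and 11.90 with DMSO. The ranges did not overlap in either line. In all 6 pairs of the same line and number, 19 of the 30 core genes were lower in suspension (63.3%), as were 27.3% of all genes. The core genes are bright, and of the 2826 genes with a mean level of at least 10, 36.6% were lower in all 6 pairs, as were 17 of the 22 core genes at that level (77.3%). With the block, 34.2% (reconstituted) and 32.9% (AhR-null) of those bright genes were called lower, as were 14 of the 22 core genes (63.6%) in each line. The plot of suspension changes shows the members by role.

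**Figure D1:**
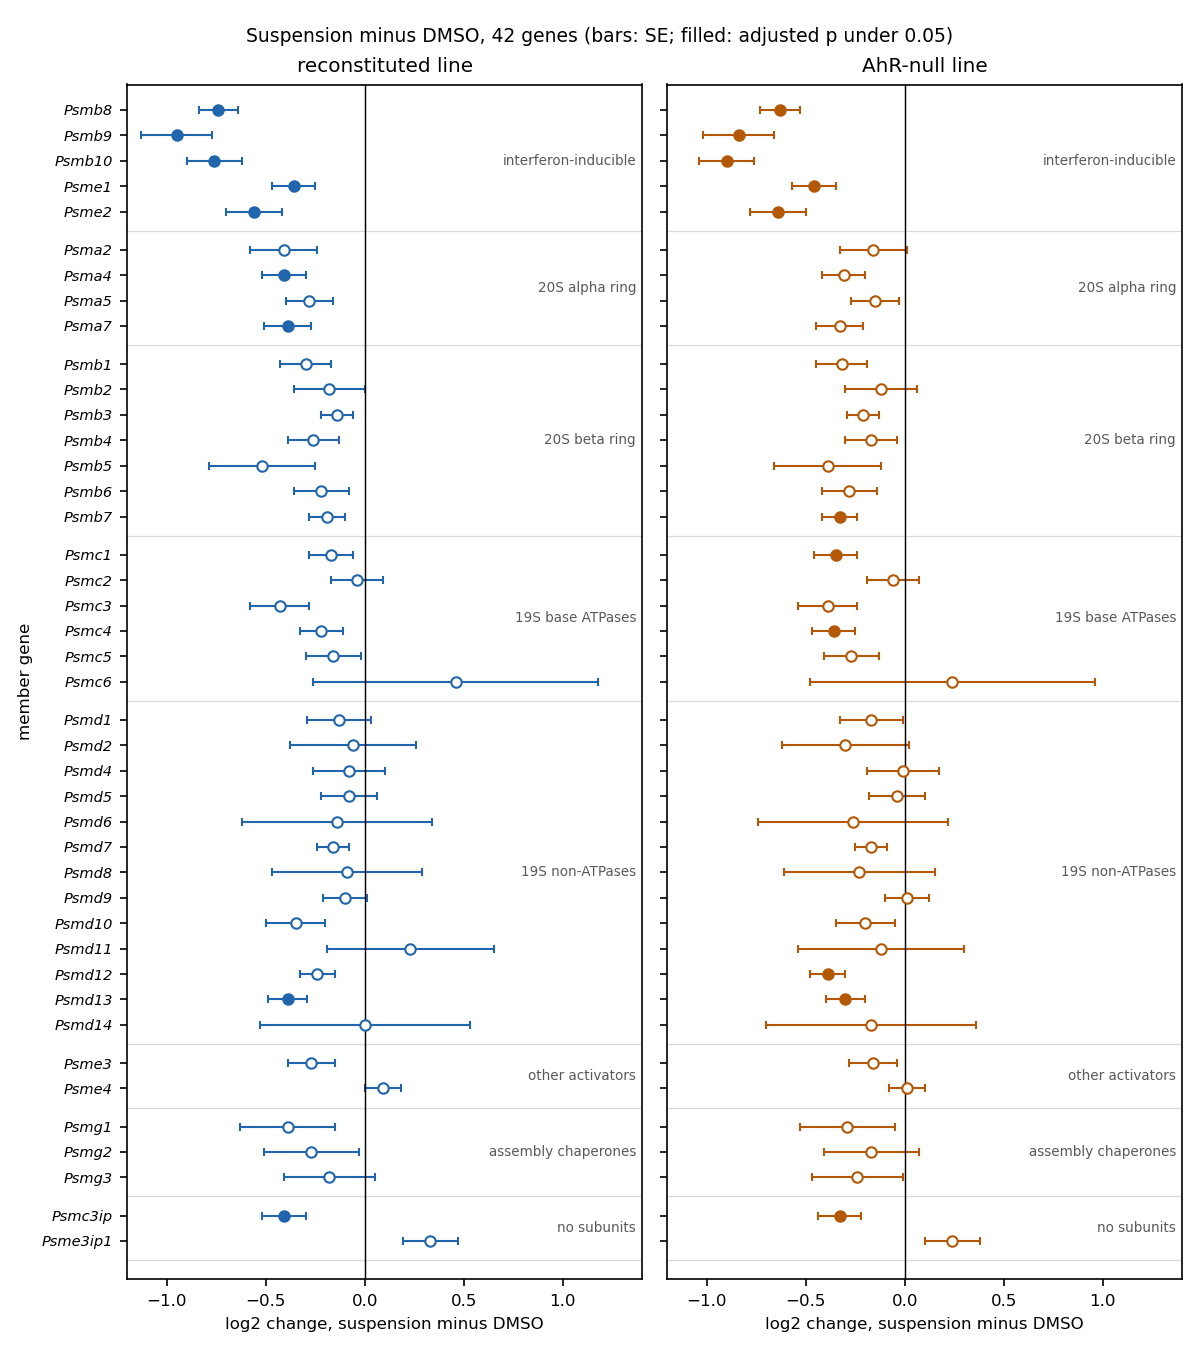
Log2 change in suspension minus DMSO (x axis) of the 42 tested genes (y axis, grouped by role) in the reconstituted (left) and AhR-null line (right), with bars of 1 standard error from the fit over 18 arrays and filled points where the adjusted p was under 0.05. The 5 interferon-inducible genes at the top lie farthest to the left in the AhR-null line, and all 9 and 11 filled points lie below 0.

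The 3 catalytic immunosubunits fell in both lines. Values below are listed in the order of replicates 1, 2 and 3. Psmb8 read 10.04, 9.96 and 9.77 with DMSO, 9.89, 9.92 and 9.94 with YH439 and 9.32, 9.19 and 9.04 in suspension in the reconstituted line. Psmb8 stood at 10.28, 10.40 and 10.42 with DMSO, 10.32, 10.34 and 10.45 with YH439 and 9.83, 9.62 and 9.74 in suspension in the AhR-null line. Suspension arrays lay below all attached arrays of their line for this gene, whose product carries the chymotrypsin-like site of the immunoproteasome. The fall was 1.67-fold in the reconstituted line (log2 change -0.74 ± 0.10 SE, n = 3 against 3, limma adjusted p = 7.97e-05) and 1.55-fold in the AhR-null line (-0.63 ± 0.10, limma adjusted p = 0.000322). A dimmer probe of Psmb8 changed by -0.36 and -0.41, with limma adjusted p-values over all probes of 0.137 and 0.0932.

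Psmb9 read 7.30, 7.75 and 7.67 with DMSO, 7.51, 7.80 and 7.72 with YH439 and 6.39, 6.74 and 6.73 in suspension in the reconstituted line. Psmb9 stood at 8.47, 8.28 and 8.23 with DMSO, 8.32, 8.28 and 7.94 with YH439 and 7.75, 7.64 and 7.06 in suspension in the AhR-null line. The groups in suspension and with DMSO did not overlap in either line, and the lowest of the 18 values were the reconstituted suspension arrays. Psmb9, which replaces the caspase-like subunit, fell 1.94-fold in the reconstituted (-0.95 ± 0.18, limma adjusted p = 0.00119) and 1.79-fold in the AhR-null line (-0.84 ± 0.18, limma adjusted p = 0.00331). Psmb10 read 9.62, 9.78 and 9.55 with DMSO, 9.72, 9.94 and 9.73 with YH439 and 8.78, 9.08 and 8.79 in suspension in the reconstituted line. Psmb10 stood at 9.46, 9.44 and 9.77 with DMSO, 9.46, 9.32 and 9.67 with YH439 and 8.85, 8.43 and 8.70 in suspension in the AhR-null line. Psmb10, which replaces the trypsin-like subunit, was lower on every suspension array than on any attached array of its line. It fell 1.7-fold (-0.76 ± 0.14, limma adjusted p = 0.000963) and 1.86-fold (-0.90 ± 0.14, limma adjusted p = 0.000283) in the same order of lines. A dimmer Psmb10 probe changed by -0.78 and -0.73 (limma adjusted p over all probes 0.0466 and 0.0664).

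Both PA28 genes fell in both lines. Psme1 read 11.54, 11.85 and 11.82 with DMSO, 11.69, 11.82 and 11.77 with YH439 and 11.30, 11.50 and 11.33 in suspension in the reconstituted line. Psme1 stood at 11.48, 11.44 and 11.65 with DMSO, 11.49, 11.34 and 11.34 with YH439 and 11.03, 11.03 and 11.14 in suspension in the AhR-null line. No suspension array reached an attached one of its line for Psme1, which encodes the alpha chain of the cap. The changes were -0.36 ± 0.11 (limma adjusted p = 0.0205) in the reconstituted and -0.46 ± 0.11 (limma adjusted p = 0.00525) in the AhR-null line. In the reconstituted line the Psme1 call was lost with the authors' processed values (limma adjusted p = 0.193) and without DMSO replicate 2 or 3 or suspension replicate 1 or 3 (limma adjusted p from 0.0751 to 0.0916). Psme2 read 9.26, 9.48 and 9.25 with DMSO, 9.34, 9.44 and 9.26 with YH439 and 8.83, 8.84 and 8.64 in suspension in the reconstituted line. Psme2 stood at 9.14, 8.89 and 9.43 with DMSO, 9.03, 8.93 and 9.07 with YH439 and 8.59, 8.25 and 8.71 in suspension in the AhR-null line. Psme2, the beta chain, was lower on every suspension array than on any attached array, by -0.56 ± 0.14 (limma adjusted p = 0.00846) and -0.64 ± 0.14 (limma adjusted p = 0.00397) in the same order of lines. In a fit of the compared groups alone, Psmb8 and Psmb10 were the 2 members still called in the AhR-null line, and Psmb9, Psme1 and Psme2 there had limma adjusted p-values of 0.0549, 0.0704 and 0.0914.

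**Figure D2:**
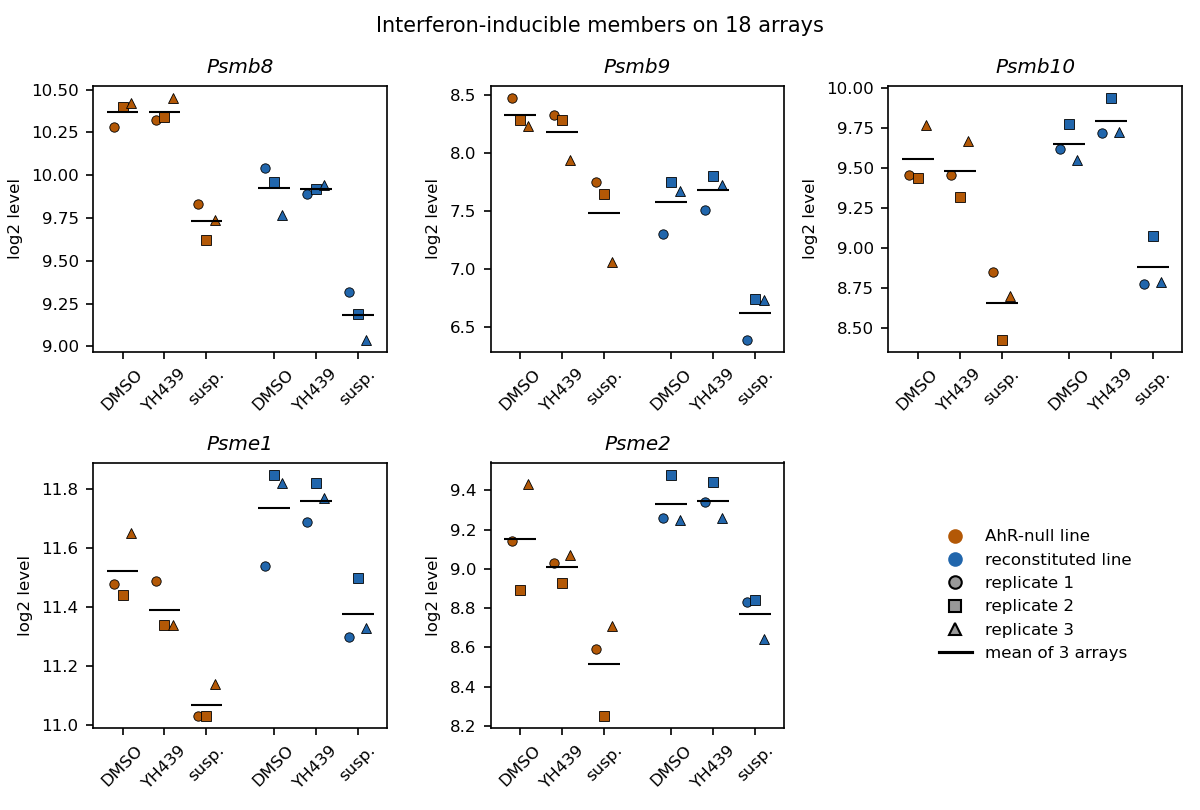
Log2 level (y axis) of the 5 interferon-inducible members on each of the 18 arrays, by line and treatment (x axis), with a point shape for each replicate number and a bar at the mean of 3 arrays. Suspension points lie below the DMSO points of the same line in all 5 panels, and Psmb8 and Psmb9 are lower in the reconstituted line than in the AhR-null line with each treatment.

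At the beta 1 and beta 2 sites the inducible subunit changed more than the constitutive one it replaces, and at the beta 5 site this depended on the probe. Psmb9 minus Psmb6 changed in suspension by -0.73 ± 0.14 (SD over 3 same-numbered pairs) in the reconstituted and -0.56 ± 0.21 in the AhR-null line. Psmb10 minus Psmb7 changed by -0.57 ± 0.07 and -0.57 ± 0.24, and Psmb8 minus Psmb5 by -0.21 ± 0.10 and -0.25 ± 0.07. All these differences of changes were negative in 3 of 3 pairs in each line. With the dimmer of the kept Psmb8 probes, Psmb8 minus Psmb5 changed by 0.16 ± 0.21 in the reconstituted line, negative in 0 of 3 pairs, and by -0.03 ± 0.39 in the AhR-null line, negative in 2 of 3. With each other kept probe of Psmb6, Psmb7 or Psmb10, the differences stayed negative in 3 of 3 pairs, with means from -0.70 to -0.40. They were set up after the values were seen and are given without a test. The constitutive Psmb5, which carries the chymotrypsin-like site, itself changed by -0.52 ± 0.27 and -0.39 ± 0.27 (limma adjusted p = 0.187 and 0.352, and 0.00101 and 0.00694 with the block), lower in all 6 pairs.

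**Figure D3:**
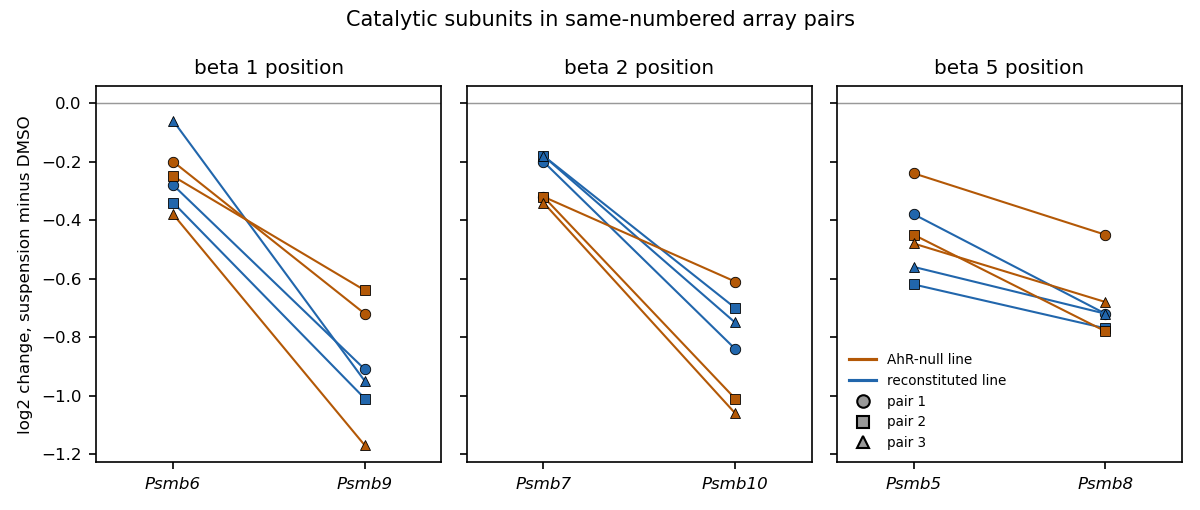
Log2 change in suspension minus DMSO (y axis) of the constitutive and the interferon-inducible subunit of each catalytic position (x axis), 1 line for each same-numbered pair of arrays, coloured by line. Every line slopes down to the inducible subunit, on average least steeply from Psmb5 to Psmb8, whose brighter probe is plotted.

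In the alpha ring 2 of 4 tested genes, Psma4 and Psma7, were called lower in the reconstituted line and 0 of 4 in the AhR-null line by limma (2 at an unadjusted p under 0.05). Over all genes, 13.4% and 11.9% were called lower in these lines. The mean changes of all 4 tested alpha genes were below 0 in both lines, from -0.41 to -0.28 and from -0.33 to -0.15. Psma4 read 13.49, 13.13 and 13.25 with DMSO, 13.34, 13.22 and 13.23 with YH439 and 12.83, 12.88 and 12.93 in suspension in the reconstituted line. Psma4 stood at 13.18, 13.26 and 13.27 with DMSO, 13.21, 13.21 and 13.33 with YH439 and 12.80, 12.83 and 13.15 in suspension in the AhR-null line. Suspension and DMSO arrays did not overlap in either line for Psma4, with changes of -0.41 ± 0.11 (limma adjusted p = 0.0136) and -0.31 ± 0.11 (limma adjusted p = 0.0577, 0.0103 with the block). The reconstituted call was lost without DMSO replicate 1 (limma adjusted p = 0.0709). Psma7 read 12.18, 12.06 and 12.05 with DMSO, 12.09, 12.04 and 11.95 with YH439 and 11.66, 11.70 and 11.74 in suspension in the reconstituted line. Psma7 stood at 11.71, 11.64 and 11.90 with DMSO, 11.69, 11.67 and 12.07 with YH439 and 11.42, 11.24 and 11.60 in suspension in the AhR-null line. Psma7 changed by -0.39 ± 0.12 (limma adjusted p = 0.0264) and -0.33 ± 0.12 (limma adjusted p = 0.0651, 0.00155 with the block), again without overlap. Leaving out any 1 of the 6 reconstituted DMSO and suspension arrays ended its call (limma adjusted p from 0.0504 to 0.089). A second Psma7 probe of similar brightness (mean 11.69 against 11.8) changed by -0.37 and -0.39. Its limma adjusted p-values over all probes were 0.179 and 0.165, neither past the threshold.

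Psma2 read 14.26, 13.82 and 13.95 with DMSO, 14.08, 13.79 and 13.82 with YH439 and 13.74, 13.64 and 13.43 in suspension in the reconstituted line. Psma2 stood at 13.77, 13.72 and 13.99 with DMSO, 13.78, 13.74 and 14.20 with YH439 and 13.50, 13.49 and 14 in suspension in the AhR-null line. The reconstituted groups did not overlap for Psma2 while the AhR-null ones did, and replicate 3 in the AhR-null line was no lower in suspension. Neither change was called (-0.41 ± 0.17 and -0.16 ± 0.17, limma adjusted p = 0.0948 and 0.555, and 0.00107 and 0.106 with the block). Psma5 changed by -0.28 ± 0.12 and -0.15 ± 0.12 and was lower in all 6 pairs. With the block all 4 tested alpha genes were called lower in the reconstituted line and 2 in the AhR-null line. Over all genes these shares were 27.4% and 26%.

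In the beta ring Psmb7, the constitutive trypsin-like subunit, was called lower in the AhR-null line (1 of 7, against 11.9% of all genes). In all 6 pairs 6 of the 7 tested genes were lower, as were 27.3% of all genes. The share was 36.6% among genes with a mean level of at least 10. Psmb7 read 12.70, 12.60 and 12.66 with DMSO, 12.53, 12.68 and 12.77 with YH439 and 12.51, 12.42 and 12.48 in suspension in the reconstituted line. Psmb7 stood at 12.68, 12.65 and 12.74 with DMSO, 12.47, 12.58 and 12.60 with YH439 and 12.36, 12.34 and 12.40 in suspension in the AhR-null line. Suspension arrays lay below the DMSO arrays in both lines, by -0.19 ± 0.09 (limma adjusted p = 0.128, 0.0365 with the block) and -0.33 ± 0.09 (limma adjusted p = 0.0118). The AhR-null call was lost with the authors' processed values (limma adjusted p = 0.077). On its other kept probes Psmb7 changed by -0.26, -0.46 and -0.23 in the AhR-null line. The limma adjusted p-values over all probes were 0.0633, 0.00991 and 0.213. Psmb1 and Psmb3 are non-catalytic subunits of the ring. Psmb1 read 12.57, 12.80 and 12.72 with DMSO, 12.64, 12.81 and 12.62 with YH439 and 12.24, 12.49 and 12.47 in suspension in the reconstituted line. Psmb1 stood at 12.44, 12.39 and 12.79 with DMSO, 12.36, 12.47 and 12.45 with YH439 and 12.23, 12.02 and 12.39 in suspension in the AhR-null line. Psmb1 changed by -0.30 ± 0.13 and -0.32 ± 0.13 (limma adjusted p = 0.111 and 0.083, and 0.0127 and 0.00805 with the block). Psmb3 read 12.94, 13.04 and 13.14 with DMSO, 13.10, 13.16 and 13.18 with YH439 and 12.91, 12.91 and 12.87 in suspension in the reconstituted line. Psmb3 stood at 12.95, 12.96 and 12.93 with DMSO, 12.91, 13.04 and 12.83 with YH439 and 12.77, 12.74 and 12.70 in suspension in the AhR-null line. Psmb3 changed by -0.14 ± 0.08 and -0.21 ± 0.08 (limma adjusted p = 0.255 and 0.0873, and 0.0823 and 0.0164 with the block), and its suspension and DMSO arrays did not overlap in either line. The reconstituted change of Psmb3 was 0 with the authors' processed values. Psmb2, Psmb4 and Psmb6 changed by between -0.12 and -0.28 and were not called in either line without the block. With the block 5 of the 7 tested beta genes were called lower in each line, against 27.4% and 26% of all genes. A second Psmb6 probe of similar brightness (mean 12.31 against 12.33) changed by -0.26 in the reconstituted and -0.37 in the AhR-null line. Its limma adjusted p-values over all probes were 0.111 and 0.0241, the latter past the threshold.

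Among the ATPases, which unfold substrates, Psmc1 and Psmc4 were called in the AhR-null line and none in the reconstituted line. These were 2 of 6 and 0 of 6, where 11.9% and 13.4% of all genes were called lower. Psmc1 read 10.79, 11.04 and 11.18 with DMSO, 10.96, 11.07 and 11.12 with YH439 and 10.72, 10.76 and 11 in suspension in the reconstituted line. Psmc1 stood at 10.99, 10.93 and 10.98 with DMSO, 10.82, 10.74 and 10.79 with YH439 and 10.64, 10.56 and 10.64 in suspension in the AhR-null line. The AhR-null groups did not overlap for Psmc1 and the reconstituted groups did. Changes were -0.17 ± 0.11 (limma adjusted p = 0.276, 0.0339 with the block) and -0.35 ± 0.11 (limma adjusted p = 0.0245). Psmc4 read 12.11, 11.92 and 11.94 with DMSO, 11.99, 11.98 and 11.86 with YH439 and 11.95, 11.78 and 11.60 in suspension in the reconstituted line. Psmc4 stood at 11.92, 11.84 and 12.11 with DMSO, 11.92, 11.85 and 11.88 with YH439 and 11.53, 11.53 and 11.74 in suspension in the AhR-null line. Psmc4 likewise overlapped in the reconstituted line alone, with changes of -0.22 ± 0.11 (limma adjusted p = 0.182, 0.0276 with the block) and -0.36 ± 0.11 (limma adjusted p = 0.0287). Both AhR-null calls were lost without DMSO replicate 1 or 3 or suspension replicate 2, Psmc1's also without DMSO replicate 2 and Psmc4's also without suspension replicate 1 (limma adjusted p from 0.0507 to 0.116). With the authors' processed values the Psmc1 call was lost (limma adjusted p = 0.116), and with median scaling the Psmc4 call (limma adjusted p = 0.055).

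Psmc3 read 11.55, 11.70 and 11.52 with DMSO, 11.33, 11.49 and 11.52 with YH439 and 10.97, 11.33 and 11.18 in suspension in the reconstituted line. Psmc3 stood at 11.15, 11.08 and 11.57 with DMSO, 11.16, 11.04 and 11.40 with YH439 and 10.83, 10.67 and 11.12 in suspension in the AhR-null line. Psmc3 was lower on the reconstituted suspension arrays than on the DMSO arrays, and the AhR-null groups overlapped. Its changes of -0.43 ± 0.15 and -0.39 ± 0.15 were not called (limma adjusted p = 0.0528 and 0.076, and 0.000331 and 0.000637 with the block). Psmc5 changed by -0.16 ± 0.14 and -0.27 ± 0.14, and Psmc2 by -0.04 ± 0.13 and -0.06 ± 0.13. Psmc6 was the 1 core gene called higher with the block, in the reconstituted line (0.46 ± 0.72 without the block, limma adjusted p = 0.712, and 0.0331 with it).

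Of 13 tested non-ATPases, 1 was called lower in the reconstituted and 2 in the AhR-null line, where 13.4% and 11.9% of all genes were. Psmd13 was called in both lines and Psmd12 in the AhR-null line. Both encode subunits of the lid, the part of the cap that removes ubiquitin. Psmd13 read 12.06, 12.05 and 12.03 with DMSO, 12.01, 12.01 and 11.90 with YH439 and 11.60, 11.75 and 11.63 in suspension in the reconstituted line. Psmd13 stood at 11.77, 11.84 and 12 with DMSO, 11.88, 11.81 and 11.98 with YH439 and 11.58, 11.42 and 11.72 in suspension in the AhR-null line. Suspension arrays lay below all attached arrays of their line. Psmd13 fell 1.31-fold (-0.39 ± 0.10, limma adjusted p = 0.00884) in the reconstituted and 1.23-fold (-0.30 ± 0.10, limma adjusted p = 0.0375) in the AhR-null line. The AhR-null call was lost with median scaling (limma adjusted p = 0.0525) and without DMSO replicate 2 or 3 or suspension replicate 1 or 2 (from 0.0731 to 0.166). Psmd12 read 11.87, 11.86 and 11.85 with DMSO, 11.85, 11.91 and 11.83 with YH439 and 11.70, 11.58 and 11.58 in suspension in the reconstituted line. Psmd12 stood at 11.94, 11.76 and 11.81 with DMSO, 11.66, 11.63 and 11.81 with YH439 and 11.43, 11.35 and 11.57 in suspension in the AhR-null line. Psmd12 in suspension also stayed below every attached array of its line, with changes of -0.24 ± 0.09 (limma adjusted p = 0.0624, 0.0102 with the block) and -0.39 ± 0.09 (limma adjusted p = 0.00536). A dimmer Psmd12 probe changed by 0.18 and -0.16 (limma adjusted p over all probes 0.857 and 0.873).

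Psmd10 read 11.39, 11.15 and 11.14 with DMSO, 11.35, 11.14 and 11.12 with YH439 and 11.12, 10.86 and 10.66 in suspension in the reconstituted line. Psmd10 stood at 11.04, 11.04 and 11.29 with DMSO, 11.07, 10.96 and 11.40 with YH439 and 10.83, 10.78 and 11.15 in suspension in the AhR-null line. Psmd10 encodes gankyrin, which helps to assemble the ATPase ring, and its groups did not overlap in the reconstituted line. Changes were -0.35 ± 0.15 and -0.20 ± 0.15 (limma adjusted p = 0.106 and 0.386, and 0.000692 and 0.0199 with the block). The other 10 non-ATPases changed by between -0.30 and 0.23 over both lines, and none was called in the fit without a block. With the block 3 of the 13 tested non-ATPases were called lower in the reconstituted and 5 in the AhR-null line. Over all genes these shares were 27.4% and 26%. Psmd4, a ubiquitin receptor, changed by little in both lines (-0.08 ± 0.18 and -0.01 ± 0.18), as did Psmd5, a chaperone of the base (-0.08 ± 0.14 and -0.04 ± 0.14).

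**Figure D4:**
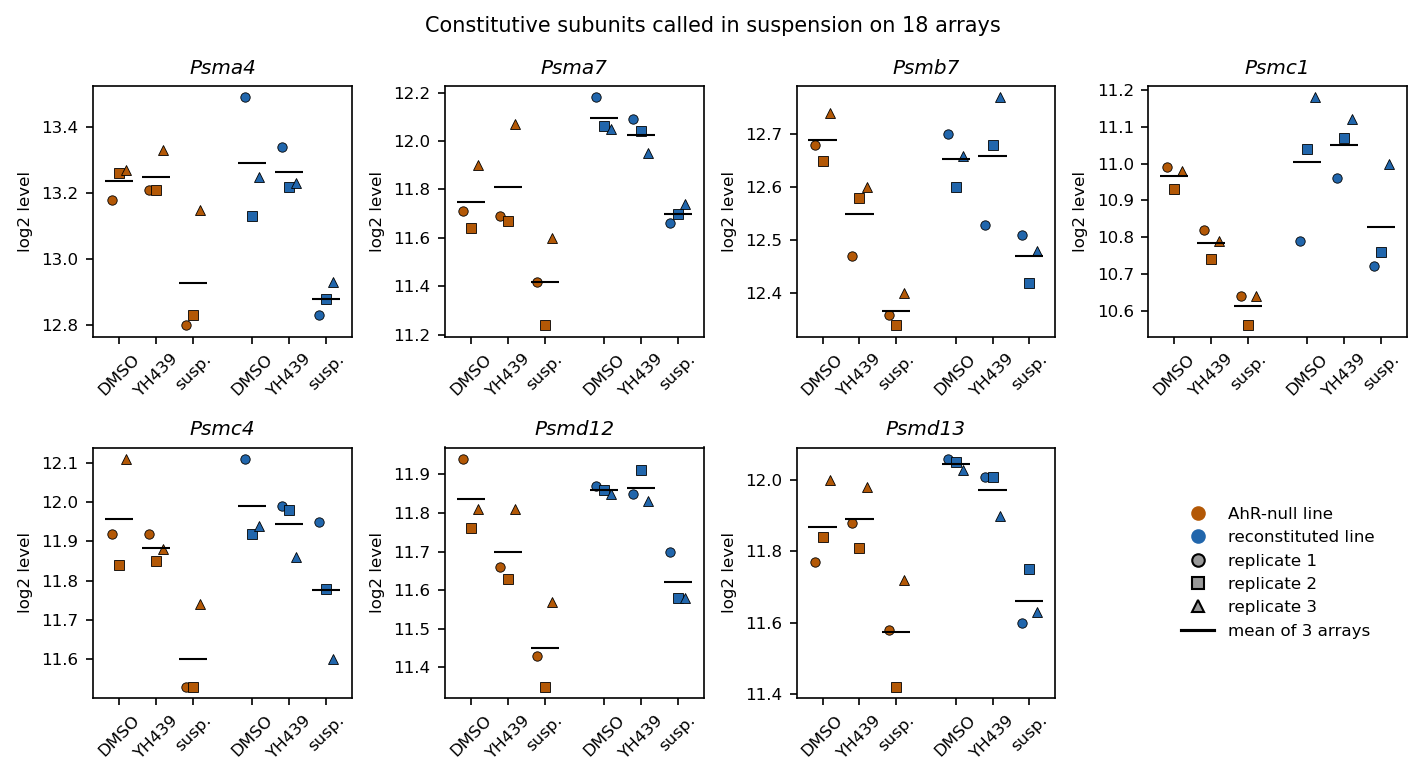
Log2 level (y axis) of the 7 constitutive subunits called lower in suspension in at least 1 line, on each of the 18 arrays by line and treatment (x axis), with a point shape for each replicate number and a bar at the mean of 3 arrays. Suspension means lie below the DMSO means in all 7 panels and both lines, with overlap of single arrays in the reconstituted line for Psmc1 and Psmc4.

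No further activator or chaperone was called in either line. Psme3, the nuclear PA28 gamma, changed by -0.27 ± 0.12 and -0.16 ± 0.12, and with the block Psme3 was called in the reconstituted line (limma adjusted p = 0.0286). Psme4, the PA200 activator, changed by 0.09 ± 0.09 and 0.01 ± 0.09. Psmg1, Psmg2 and Psmg3, chaperones of alpha ring assembly, changed by between -0.17 and -0.39. With the block 2 of the 3 were called lower in each line, against 27.4% and 26% of all genes. Psmc3ip read 11.15, 11.08 and 11.09 with DMSO, 11.11, 11.04 and 11.14 with YH439 and 10.62, 10.76 and 10.71 in suspension in the reconstituted line. Psmc3ip stood at 10.89, 10.87 and 11.08 with DMSO, 10.87, 10.84 and 11.10 with YH439 and 10.54, 10.48 and 10.85 in suspension in the AhR-null line. Psmc3ip encodes a meiotic recombination factor and no subunit. It was lower on all suspension than DMSO arrays in both lines (-0.41 ± 0.11 and -0.33 ± 0.11, limma adjusted p = 0.0122 and 0.0425). Its AhR-null call was lost in 14 of 28 alternatives (limma adjusted p up to 0.228). Psme3ip1 read 9.17, 9.73 and 9.38 with DMSO, 9.20, 9.53 and 9.57 with YH439 and 9.72, 9.83 and 9.72 in suspension in the reconstituted line. Psme3ip1 stood at 9.29, 9.37 and 9.10 with DMSO, 9.21, 9.26 and 9.14 with YH439 and 9.54, 9.63 and 9.31 in suspension in the AhR-null line. Psme3ip1, a binding partner of PA28 gamma, was the 1 tested member higher in suspension in all 6 pairs, as were 21.9% of all genes (0.33 ± 0.14 and 0.24 ± 0.14, limma adjusted p = 0.11 and 0.258, and 0.00954 and 0.0429 with the block).

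No member's response to suspension was called different between the lines (0 of 42, limma, with 0 at an unadjusted p under 0.05 and 0 with the block), where 0.00897% of all genes were called, or 0.17% with the block. The differences of the responses, reconstituted minus AhR-null, ran from -0.24 to 0.35 over the members and from -0.11 to 0.13 over the interferon-inducible group. The standard error of a single such difference was 0.14 for Psmb8 and 0.26 for Psmb9, which limits the difference that 3 arrays a group can detect.

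YH439 moved no member past the threshold in either line (0 of 42 in each by limma, 0 at an unadjusted p under 0.05 and 0 with the block), where 0.135% of all genes were called in the reconstituted and 0% in the AhR-null line, or 0.834% and 0.0179% with the block. Log2 changes of the members ran from -0.15 to 0.23 in the reconstituted and from -0.19 to 0.10 in the AhR-null line. Psmb9, the member with the largest fall in the reconstituted suspension arrays, changed with YH439 by 0.10 ± 0.18 and -0.15 ± 0.18. Psmb8 changed by -0.01 ± 0.10 and 0.00 ± 0.10. The difference of the YH439 responses between the lines was called for 0 members (limma, 0 at an unadjusted p under 0.05 and 0 with the block), where 0.0269% of all genes were called, or 0.161% with the block.

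Between the lines, Psmb8 and Psmb9 were lower in the reconstituted cells. With DMSO 0 of 42 members were called by limma (3 at an unadjusted p under 0.05), where 0.547% of all genes were called. Psmb8 differed there by -0.45 ± 0.10 (limma adjusted p = 0.0697) and Psmb9 by -0.75 ± 0.18 (limma adjusted p = 0.0943). With YH439 Psmb8 was called (-0.45 ± 0.10, limma adjusted p = 0.0321), 1 of 42 members where 1.44% of all genes were called, and Psmb9 was not (-0.51 ± 0.18, limma adjusted p = 0.289). In suspension Psmb8 (-0.55 ± 0.10, limma adjusted p = 0.0089) and Psmb9 (-0.87 ± 0.18, limma adjusted p = 0.0208) were the 2 called members, where 1.78% of all genes were called. The arrays of the lines did not overlap for Psmb8 or Psmb9 with any treatment, as was so for 5.61%, 5.83% and 6.86% of all genes lower in the reconstituted line with DMSO, with YH439 and in suspension. The other interferon-inducible members, Psme1, Psmb10 and Psme2, went the other way and were not called. Psme1 was higher in the reconstituted line by 0.21 ± 0.11, 0.37 ± 0.11 and 0.31 ± 0.11 with DMSO, with YH439 and in suspension (limma adjusted p = 0.556, 0.137 and 0.189). In the same order, reconstituted means of Psmb10 were 9.65, 9.8 and 8.89, against AhR-null means of 9.56, 9.48 and 8.66. Those of Psme2 were 9.33, 9.35 and 8.77, against 9.15, 9.01 and 8.52.

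These line calls rested on few arrays. With YH439 the Psmb8 call was lost without any 1 of the 6 arrays compared (limma adjusted p from 0.0761 to 0.121), and without AhR-null DMSO replicate 2 or reconstituted suspension replicate 2, which enter the shared spread (0.0506 and 0.0519). In suspension the Psmb8 call was lost without AhR-null replicate 1 or reconstituted replicate 3 (limma adjusted p = 0.0578 and 0.0664). The Psmb9 call in suspension was lost without AhR-null replicate 1 or 2 or any reconstituted replicate (limma adjusted p from 0.0523 to 0.115), and with the authors' processed values (0.0804), where Psma7 was called instead (0.32 higher in the reconstituted line, limma adjusted p = 0.014). With only the groups compared in the fit, the Psmb8 calls with YH439 and in suspension and the Psmb9 call were lost (limma adjusted p = 0.24, 0.274 and 0.262). With the 6 dimmest arrays left out, 12, 13 and 13 of the 42 members were called with DMSO, with YH439 and in suspension, where 24.3%, 24.9% and 25.6% of all genes were called, so that the members' counts lay near the background. Psmb8 and Psmb9 (lower), Psmd6, Psmd11 and Psmd14 (lower) and Psma7, Psmc3, Psme1, Psmg1 and Psmg3 (higher in the reconstituted line) were among them with all treatments.

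Psmc6, Psmd14, Psmd6, Psmd11 and Psmd8 had a pattern of their own, picked out after their values were seen. In the AhR-null line Psmc6, an ATPase, stood between 9.32 and 9.91 on the 6 arrays of replicates 1 and 2 and between 7.05 and 7.67 on the 3 arrays of replicate 3, a mean difference of -2.18. Psmd14, the deubiquitinase of the lid, stood between 12.04 and 12.30 and between 10.32 and 10.63, a difference of -1.69. Psmd6, Psmd11 and Psmd8, further lid subunits, differed by -1.44, -1.29 and -1.12. The reconstituted arrays lay between 7.33 and 8.97 for Psmc6 and between 10.75 and 11.48 for Psmd14, below all arrays of AhR-null replicates 1 and 2. Of the 42 members, 5 (11.9%) were more than 1 lower on AhR-null replicate 3 than on replicates 1 and 2, as were 590 of 11149 genes (5.29%). These arrays are among the 6 dimmest, and the part of that in the pattern was not tested.

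**Figure D5:**
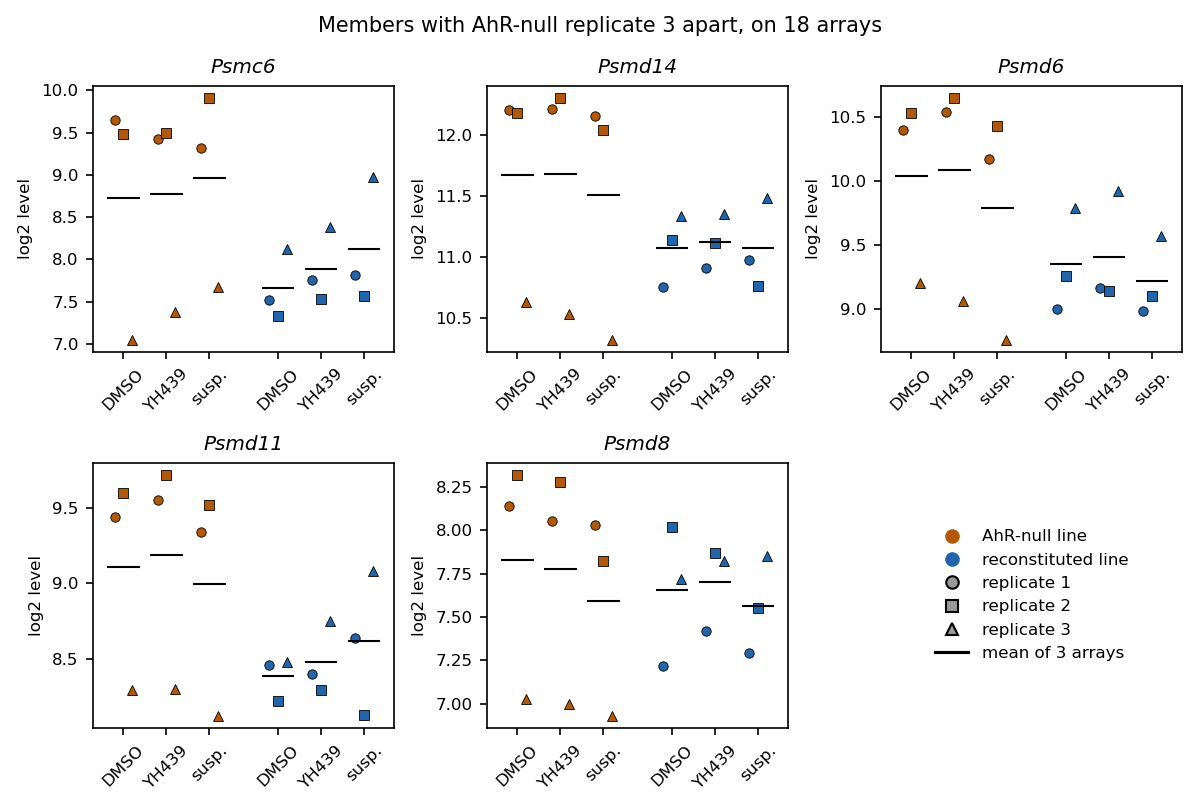
Log2 level (y axis) of Psmc6, Psmd14, Psmd6, Psmd11 and Psmd8 on each of the 18 arrays by line and treatment (x axis), with a point shape for each replicate number and a bar at the mean of 3 arrays. AhR-null replicate 3 (triangles) lies below replicates 1 and 2 with all 3 treatments in all 5 panels.

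Of 8 tested regulators and extra subunits of the proteasome, 2 rose and 1 fell in the reconstituted line in suspension (37.5%, where 24.1% of all genes were called) and 1 rose and 1 fell in the AhR-null line (25%, where 22.6% were called). Nfe2l2, the oxidative stress factor that binds antioxidant response elements, rose by 0.84 ± 0.09 (limma adjusted p = 5.86e-06) and 0.63 ± 0.09 (limma adjusted p = 9.78e-05). Nfe2l1 rose by 0.28 ± 0.10 in the reconstituted line (limma adjusted p = 0.0482), and its change of 0.23 ± 0.10 in the AhR-null line was not called (limma adjusted p = 0.1, 0.0215 with the block). Pomp, the chaperone of beta ring assembly, fell by 0.31 ± 0.10 (limma adjusted p = 0.036) and 0.35 ± 0.10 (limma adjusted p = 0.0235). With YH439 Nfe2l2 rose in the reconstituted line (0.51 ± 0.09, limma adjusted p = 0.0242). It was also higher in the reconstituted than in the AhR-null line with every treatment, by 0.47 ± 0.09 with DMSO (limma adjusted p = 0.0197). Of 7 tested genes of ubiquitin supply and delivery, Sqstm1, a receptor that carries ubiquitinated cargo to autophagy, rose by 1.59 ± 0.14 (limma adjusted p = 1.4e-06) and 1.63 ± 0.14 (limma adjusted p = 1.26e-06), and the other 6 were not called.

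Of 11 tested genes of interferon response and antigen presentation, 1 fell in the reconstituted line (9.09%, against 24.1% of all genes called), and 2 fell and 2 rose in the AhR-null line (36.4%, against 22.6%). Isg15, an interferon-induced ubiquitin-like protein, fell by 0.80 ± 0.16 (limma adjusted p = 0.00178) and 0.61 ± 0.16 (limma adjusted p = 0.0124). Tap2, part of the peptide transporter fed by the immunoproteasome, changed by -0.46 ± 0.18 (limma adjusted p = 0.0802, 0.00343 with the block) and fell by 0.56 ± 0.18 in the AhR-null line (limma adjusted p = 0.0341). Stat2 and Irf9, transcription factors of the interferon response, rose in the AhR-null line by 0.44 ± 0.12 and 0.41 ± 0.11 (limma adjusted p = 0.0176 and 0.0123). The list's median change was -0.04 and -0.01, against -0.04 over all genes. Macrophage and leukocyte markers with a probe numbered 5, of which 3 were detected on every array, and Ptprc and Adgre1 were detected on none. Their summed level lay between 8.48 and 8.61 on DMSO arrays and between 8.68 and 8.88 on suspension arrays of both lines, where the interferon-inducible subunits were lower. Of the 3 tested, Csf1r rose by 1.35 ± 0.14 and 1.39 ± 0.14 (limma adjusted p = 5.42e-06 and 4.45e-06), and Lyz2 (-0.36 ± 0.24 and -0.52 ± 0.24) and Cd14 (-0.19 ± 0.13 and -0.27 ± 0.13) were not called. The summed level of 4 bile duct markers lay between 10.68 and 11.20 with DMSO and between 12.04 and 12.86 in suspension, with Epcam detected on no array. The summed levels of the mesenchymal, endothelial and hepatocyte markers lay between 14.43 and 14.91, 6.58 and 6.83, and 7.64 and 7.86 over all 18 arrays. The part of these markers in the subunit changes was not tested.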

How the data were processed

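RNA from 18 samples (6 groups of 3) was read on Illumina mouse BeadChip arrays with BeadStudio, per the submitters' processing notes (version not given in the sources). The deposited non-normalized table holds the bead intensity of each probe with its detection p-value, per the file headers. A deposited matrix with the authors' own processed intensity, scaled between arrays in a way that is not stated, served as an alternative. No column was left unassigned.

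Here limma 3.58.1 (R 4.3.3) was used, with neqc for normexp background correction guided by the detection p-values (offset 16), quantile normalization and the log2 scale. Only probes with a detection p under 0.05 on at least 3 arrays were kept (22203 of 45281), and probes naming several genes (18) or none (10378) were left out. The brightest kept probe stood for its gene, which gave 11149 genes. One model (lmFit, eBayes) estimated the 6 group means from the 18 arrays, leaving 12 residual degrees of freedom. Two-sided p-values were adjusted by Benjamini-Hochberg over all genes in each of 9 comparisons and a threshold of 0.05. Errors are standard errors unless SD is stated. The number of arrays limits the precision.

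Same-numbered arrays of a line correlated in their deviations from the group means (r from 0.173 to 0.862, median 0.55, 18 pairs). Different-numbered arrays had a median r of -0.355 within a line (36 pairs, up to 0.683) and 0.363 across lines (54 pairs). The labels do not state that the numbers pair samples. The dimmest arrays are AhR-null replicate 3 and reconstituted replicate 1, and their part in these correlations was not tested. The block of line and number leaves 8 residual degrees of freedom. Across lines, same-numbered arrays had a median r of -0.397 (27 pairs) and do not pair.

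Gene names came from the platform's probe annotation. All 49 members matched a RefSeq table of GRCm38.p6, used for names. Alternatives were the block, the authors' values, other background corrections and normalizations, other filters and probe choices, fits of fewer groups, the 6 dimmest arrays left out or blocked, and each array left out. The members, lists and rules were chosen with earlier results of these data known. Values on every array are given for the 5 interferon-inducible members and the 14 others with the smallest p in suspension. Counts over same-numbered pairs and over bright genes, and the other probes of the catalytic subunits, were chosen after seeing the data. The procedure was tested on simulated data.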

Additional observations from a re-analysis of the deposited data

How the results depend on the processing

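None of the 44 named results reversed its direction under any of its 28 alternatives, and 1088 of the 1232 values stayed on the same side of the threshold (70 lost a call and 74 gained one). These 28 did not include a gene's dimmer probes. In the reconstituted line Psmd12 in suspension changed by -0.24 on the probe used and by 0.18 on its dimmer probe. The count of members called in suspension in the reconstituted line was 9, and became 26 with the replicate block, 25 with the array set by signal as a block and 17 without the 6 dimmest arrays. In the AhR-null line it was 11, and became 25, 24 and 17 under the same settings and 2 with only the groups compared. Leaving out 1 array gave 7 to 11 in the reconstituted and 7 to 15 in the AhR-null line, with 7 without AhR-null DMSO replicate 3 or suspension replicate 2. Between the lines with DMSO the count of 0 became 1 with the authors' values, with no filter, with the stricter filter and with the set block, 12 without the 6 dimmest arrays, and 0 to 1 leaving out 1 array. With YH439 the count of 1 became 0 with only the groups compared or with all kept probes tested separately, 2 with the set block, 13 without the 6 dimmest arrays, and 0 to 1 leaving out 1 array. In suspension the line count of 2 became 0 with only the groups compared, 13 without the 6 dimmest arrays, and 0 to 2 leaving out 1 array. Counts for YH439 and for both interactions were 0 under all 29 alternatives. The replicate block changed no other count by more than 1.5 times, and for the comparisons of lines it used the replicate number, which does not pair samples there.

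The median change of the constitutive core moved to -0.06 with the authors' values and -0.26 with median scaling in the reconstituted line (-0.23 to -0.17 leaving out 1 array), and to -0.17 and -0.28 in the AhR-null line (-0.29 to -0.21). The causes of these shifts were not tested, beyond the fewer arrays that some settings use. Subunits without a detected probe, such as Psma1 and Psma3, could not be followed.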
